A study of Mus musculus with 9 samples.

Results

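The adipocyte genes described here are 10 genes of the fat cells that fill the mammary fat pad, the tissue in which mammary tumors grow. They were taken by name from the table of counts and comprise the hormones Adipoq, Lep and Retn, the secreted protease Cfd, the lipid droplet proteins Plin1, Plin4 and Cidec, the lipase Lipe, the fatty acid carrier Fabp4 and the transcription factor Pparg. All 10 were found among the 55403 genes of the table, and 6 of them (Fabp4, Pparg, Lipe, Plin1, Cfd and Plin4) had enough reads to enter the test between genotypes. In GENCODE M21 on GRCm38 the genes are scattered over the genome. Adipoq lies at chr16:23146536-23158028, Cfd at chr10:79890853-79892655, Plin4 at chr17:56100591-56109803, Fabp4 at chr3:10204088-10208576 and Retn at chr8:3655770-3660110. Plin1 (chr7:79720218-79732903) and Lipe (chr7:25379527-25398710) share a chromosome, as do Lep (chr6:29060220-29073877), Cidec (chr6:113424634-113435760) and Pparg (chr6:115360951-115490399). Counts cover the exons of each gene as a whole.

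The libraries came from mammary tumors of female C57BL/6 MUC1.Tg MMTV-PyMT mice, in which polyoma middle T is expressed from the MMTV promoter, active mainly in mammary epithelium, alongside a human MUC1 transgene. Tumors with Hspa1a and Hspa1b intact (Hspa1a/Hspa1b+/+, WT) gave 4 libraries from animals of 122 to 132 days, and tumors lacking both genes (Hspa1a/Hspa1b-/-, KO) gave 5 from animals of 120 to 125 days. These 2 genes encode HSP72, the stress-inducible HSP70 chaperone, and the series asks which processes of the tumors depend on it. Both transgenes were present in every animal, and the labels number the samples without naming animals, so each p-value reflects only how these samples scatter, which may be technical. Per the labels' protocols, tumors were minced, digested with collagenase and trypsin, strained and pelleted, and RNA was taken from the pellet while the supernatant was discarded. Mature fat cells are buoyant because of their lipid, and how many of them stayed in the pellets was not tested.

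Each library held 4410399 to 6221181 fragments counted on genes. Levels are given as CPM, the count per 1000000 counts of a library after TMM scaling (a correction for differences in composition). The limit for a gene without reads, set at 3 counts per library, was 0.482 to 0.680 counts per 1000000 gene counts. This limit and the Poisson intervals cover counting error only. The deleted genes followed the labels, with Hspa1b at 28.8 to 81.1 CPM in the WT libraries and 0 to 0.657 CPM in the KO libraries. WT 1 and WT 4 stood apart by their milk protein genes, at 16730 and 11850 summed CPM against 3376 and 5243 in WT 2 and WT 3 and 2454 to 8029 in KO.

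White adipocytes store triglyceride in a single large lipid droplet. The nuclear receptor encoded by Pparg, together with C/EBP factors, switches on the genes of the mature cell. Perilipin 1 (Plin1) and Cidec coat and enlarge the droplet, hormone-sensitive lipase (Lipe) helps to empty it, and Fabp4 carries the fatty acids inside the cell. Adiponectin (Adipoq), leptin (Lep) and, in the mouse, resistin (Retn) and adipsin (Cfd) are secreted into the blood. Adipoq and Fabp4 are among the most abundant messages of a fat cell.

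Promoters of the members are shown because C/EBP factors and PPARG are the shared regulators of these genes and because the members varied together between libraries. RefSeq promoter entries on GRCm38.p6 were available for 9 of the 10 members, 13 promoters in all, and each was read over the 200 bases before its start. Each motif was searched on both strands. The C/EBP motif TTGCNNAA was present in 4 of the 13 promoters, those of Lep, Plin1, Cidec and Pparg, against 7.47% of 32851 promoters of all genes. The CCAAT box was found in 4 of the 13 (29.3% of all), TATAAA in 1 (9.96%) and the E-box CACGTG in 1 (5.26%). The direct repeat bound by PPARG with its partner RXR (a DR1 element in its consensus letters) was found in none of the 13 and in 0.298% of all. No motif match overlapped another. A match is a description of the letters and says nothing of binding. The sequences below run 5′ to 3′ on the gene's strand up to the base before the RefSeq start, with motif matches in capitals. Lep has a C/EBP match (TTGCGCAA), the start of Pparg that lies farthest downstream has a C/EBP match (TTTTGCAA) and 2 CCAAT boxes, Cidec has a C/EBP match far from its start (TTGCTCAA), and Adipoq has 3 CCAAT boxes.
Lep, chr6:29060021-29060220, plus strand: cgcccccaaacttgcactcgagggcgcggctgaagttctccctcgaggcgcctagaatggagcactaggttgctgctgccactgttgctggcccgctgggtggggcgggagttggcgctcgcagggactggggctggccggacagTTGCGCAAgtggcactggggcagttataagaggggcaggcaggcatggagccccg
Pparg, chr6:115421866-115422065, plus strand: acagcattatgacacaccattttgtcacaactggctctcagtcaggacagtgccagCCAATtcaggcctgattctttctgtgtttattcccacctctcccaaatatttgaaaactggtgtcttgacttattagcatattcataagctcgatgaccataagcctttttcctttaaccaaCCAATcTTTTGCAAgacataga
Cidec, chr6:113434765-113434964, minus strand: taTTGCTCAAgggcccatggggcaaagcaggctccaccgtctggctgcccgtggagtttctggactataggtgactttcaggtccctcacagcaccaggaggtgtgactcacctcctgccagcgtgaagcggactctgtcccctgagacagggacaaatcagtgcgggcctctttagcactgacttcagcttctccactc
Adipoq, chr16:23146336-23146535, plus strand: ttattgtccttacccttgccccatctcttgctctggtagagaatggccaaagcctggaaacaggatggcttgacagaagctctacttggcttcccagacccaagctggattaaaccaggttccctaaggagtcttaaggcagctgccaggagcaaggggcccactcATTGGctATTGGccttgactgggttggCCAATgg

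The adipocyte genes had few reads in these libraries. The 10 genes took 3252 counts over the 9 libraries, or 67.3 of every 1000000 gene counts, and Lipe alone took 53.0% of them. Lipe had 32.5 times the counts of Adipoq. Per kilobase of the longest coding transcript, Lipe stood highest at 9.62 ± 3.49 CPM per kb (SD over 9 libraries), above Cfd at 6.55 ± 3.79 in 9 of 9 libraries. Fabp4 followed at 4.52 ± 1.97 CPM per kb, and Plin4, a perilipin of the droplet surface also found outside fat, at 2.36 ± 1.23. Next in order were Pparg (1.10 ± 0.358), Plin1 (0.977 ± 0.795), Adipoq (0.847 ± 0.566), Cidec (0.562 ± 0.361), Retn (0.425 ± 0.276) and Lep (0.0889 ± 0.0801). Cfd exceeded Fabp4 in 8 libraries, Fabp4 exceeded Plin4 in 9 and Plin4 exceeded Pparg in 9. From Pparg down to Retn neighbours in the order were not separated, the upper gene being higher in 5 to 7 of the 9 libraries.

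**Figure D1:**
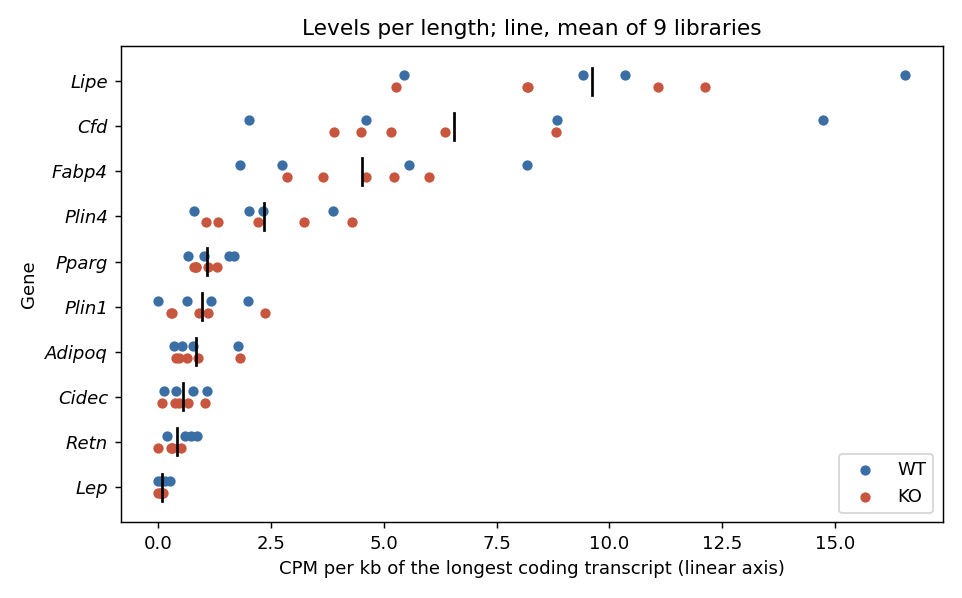
Levels per length of the 10 adipocyte genes, as CPM per kilobase of the longest coding transcript on a linear axis, with 1 point per library (blue WT, red KO) and a line at the mean of 9 libraries. Lipe lies highest, at a mean of 9.62, and the hormone genes Retn and Lep lowest, at 0.425 and 0.0889.

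Set against all 14665 genes tested, the markers that define a fat cell were near the bottom. Only 4.77% of the genes tested had a lower level per kb than Adipoq, 6.14% than Plin1, 7.35% than Pparg and 1.90% than Cidec. Adipoq and Cidec fell under the count filter that chose the genes tested, so a low rank was largely set in advance for them. Fabp4 lay above 31.8%, Cfd above 41.5% and Lipe above 52.6%. Lipe thus stood above Fabp4 and Adipoq, although the latter are the abundant messages of a fat cell, and the defining markers were detected only at low levels. Length matters for a few members, because all annotated exons together are 5.01 times the coding transcript for Fabp4, 1.65 times for Plin1 and 1.59 times for Lipe. Over all annotated exons Fabp4 fell behind Plin4, at 0.902 against 2.35 CPM per kb, and Lipe behind Cfd, at 6.07 against 6.55. An antisense transcript, 4732471J01Rik, shares 918 of the 5886 annotated exon bases of Lipe and took 320 counts in all, so reads in the shared stretch are uncertain as no source used here gives the strand setting.

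No adipocyte gene was called between KO and WT tumors. Of the 6 members tested none was called by edgeR's quasi-likelihood test (Benjamini-Hochberg adjusted p under 0.05), where 0.0886% of all genes tested were called (0.0546% higher and 0.0341% lower in KO), and none had an unadjusted p under 0.05, where 7.95% of all did. For none of the 6 were the KO and WT ranges apart, as they were for 2.70% of all genes tested. Their log2 fold changes were positive for 2 and negative for 4, where 50.0% of all genes were positive, with a median of -0.13, against a median of -0.000078 over all genes. In bulk tissue, fewer cells of a type and less RNA per cell cannot be told apart. DESeq2 called none of the 6 either, and 0.464% of all genes.

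Among the droplet proteins, Plin1 varied most between libraries. It stood at 0, 5.64, 3.32 and 1.79 CPM in WT 1 to WT 4 and at 2.56, 3.10, 0.821, 6.68 and 0.855 CPM in KO 1 to KO 5. KO 4 and WT 2 were high, WT 1 had no read and KO 3 and KO 5 were low, so the groups overlapped over nearly their whole range. Its log2 fold change was 0.02 ± 0.77 (standard error SE, with edgeR adjusted p = 0.996), with a 95% interval of -1.66 to 1.71 that allows a change of about 3.27-fold upward. The counts behind the extremes were 0 in WT 1 (exact Poisson interval up to 3.69) and 37 in KO 4 (26.1 to 51.0).

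Plin4 had more reads. It stood at 4.65, 22.4, 11.6 and 13.4 CPM in WT 1 to WT 4 and at 12.8, 18.6, 7.72, 24.7 and 6.16 CPM in KO 1 to KO 5. KO 4 and WT 2 were again highest, and WT 1, KO 5 and KO 3 lowest. The log2 fold change of Plin4 was 0.10 ± 0.46 (SE), and the edgeR adjusted p was 0.968, with an interval of -0.91 to 1.11. Within KO the highest library exceeded the lowest 4.02-fold for Plin4 and 8.14-fold for Plin1, while the KO and WT means of these genes were within 1.08-fold of each other. The directions of both rested on single libraries, since without WT 1 the log2 fold changes were -0.37 (Plin1) and -0.17 (Plin4), and without KO 4 they were -0.59 and -0.21. With age as a covariate they were larger, at 1.22 for Plin1 and 0.87 for Plin4. The edgeR p was then 0.0855 and 0.022 unadjusted and 0.444 and 0.320 adjusted. Without WT 1 and WT 4 the log2 fold changes were -0.67 and -0.28.

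Cidec, which promotes the fusion of droplets, fell under the count filter. Its 47 counts gave 0.698, 1.88, 1.33 and 0.224 CPM in WT 1 to WT 4 and 0.788, 1.14, 0.657, 1.81 and 0.171 CPM in KO 1 to KO 5. WT 2 and KO 4 were highest, WT 4 and KO 5 lowest with 1 read each, and the groups overlapped (exact permutation p = 0.786, two-sided).

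Among the genes of fatty acid handling, Lipe gave the best measured value. It stood at 20.2, 61.5, 38.4 and 34.9 CPM in WT 1 to WT 4 and at 30.3, 45.0, 19.5, 41.2 and 30.4 CPM in KO 1 to KO 5. WT 2 was highest, WT 1 and KO 3 lowest, and every KO library lay inside the WT range except KO 3, just below it. Its log2 fold change was -0.22 ± 0.30 (SE), and the edgeR adjusted p was 0.868. The 95% interval of -0.89 to 0.44 runs from 0.541 to 1.36 times the WT level.

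Fabp4 stood at 1.63, 7.32, 4.99 and 2.46 CPM in WT 1 to WT 4 and at 4.14, 5.38, 3.28, 4.69 and 2.57 CPM in KO 1 to KO 5. All KO libraries lay within the WT range, which ran from WT 1 to WT 2. The log2 fold change was -0.05 ± 0.40 (SE), and the edgeR adjusted p was 0.984, with an interval of -0.93 to 0.83. Fabp4 is also made by capillary endothelium and macrophages. The summed level of 11 endothelial markers ran from 48.9 to 185 CPM in WT and from 25.3 to 76.0 CPM in KO. That of 11 macrophage markers ran from 515 to 820 CPM in WT and from 270 to 678 CPM in KO. Which cells made the Fabp4 transcripts was not tested.

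Pparg, the regulator of the program, varied least. It stood at 1.40, 3.34, 2.16 and 3.58 CPM in WT 1 to WT 4 and at 2.36, 2.77, 1.81, 1.81 and 1.71 CPM in KO 1 to KO 5. WT 4 and WT 2 were highest and WT 1 lowest, with all KO libraries between them. The log2 fold change was -0.32 ± 0.32 (SE), and the edgeR adjusted p was 0.815, with an interval of -1.03 to 0.39. Counts per gene do not separate the start of Pparg used in fat cells from its other starts.

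Of the secreted products, only Cfd was tested. Cfd, the complement factor D protease, stood at 1.86, 13.6, 8.14 and 4.25 CPM in WT 1 to WT 4 and at 4.14, 5.87, 4.76, 8.12 and 3.59 CPM in KO 1 to KO 5. The WT libraries spanned 7.30-fold, from WT 1 to WT 2, and all KO libraries lay inside that span. Its log2 fold change was -0.40 ± 0.46 (SE), and the edgeR adjusted p was 0.841, with an interval of -1.41 to 0.60. The negative signs of Cfd and Lipe rested on WT 2, without which their values were 0.12 and 0.09. That of Fabp4, close to 0, turned without WT 2 (0.36) and also without WT 3 (0.06), KO 3 (0.02) or KO 5 (0.08). The values of Cfd, Fabp4 and Lipe were -1.03, -0.61 and -0.58 when WT 1 and WT 4, the libraries rich in milk protein genes, were both left out. The edgeR p of Cfd was then 0.0129 unadjusted and 0.898 adjusted. With age as a covariate the 3 values were 0.43, 0.62 and 0.31.

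Adipoq, the most specific fat cell hormone, gave 2 to 13 counts per library. It stood at 0.698, 2.30, 0.997 and 0.448 CPM in WT 1 to WT 4 and at 0.591, 1.14, 0.821, 2.35 and 0.513 CPM in KO 1 to KO 5. KO 4 and WT 2 were the only libraries above 2 CPM, 1 in each group, and the means differed by less than the spread (exact permutation p = 0.944, two-sided). Without the count filter, edgeR gave a log2 fold change of -0.05 ± 0.56 (SE; adjusted p = 0.979) with an interval of -1.23 to 1.12.

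Lep and Retn were at the limit of detection. Lep gave 14 counts in all, 0, 4, 3 and 1 in WT 1 to WT 4 and 1, 2, 1, 2 and 0 in KO 1 to KO 5 (exact permutation p = 0.373, two-sided). Retn gave 23 counts, 1, 4, 6 and 3 in WT 1 to WT 4 and 3, 2, 0, 2 and 2 in KO 1 to KO 5. Its mean was 0.684 ± 0.329 CPM for WT and 0.324 ± 0.211 CPM for KO (SD; exact permutation p = 0.0952, two-sided, where 0.00794 is the smallest p this design allows). WT 2, WT 3 and WT 4 lay above every KO library for Retn and WT 1 below all but KO 3. Without WT 1 the exact permutation p of Retn was 0.0179, which came from leaving out the library that overlapped. The log2 fold changes without the count filter were -0.88 ± 0.84 for Lep and -1.10 ± 0.68 for Retn (SE), with edgeR adjusted p of 0.735 and 0.730, so a difference was not detectable at this depth.

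**Figure D2:**
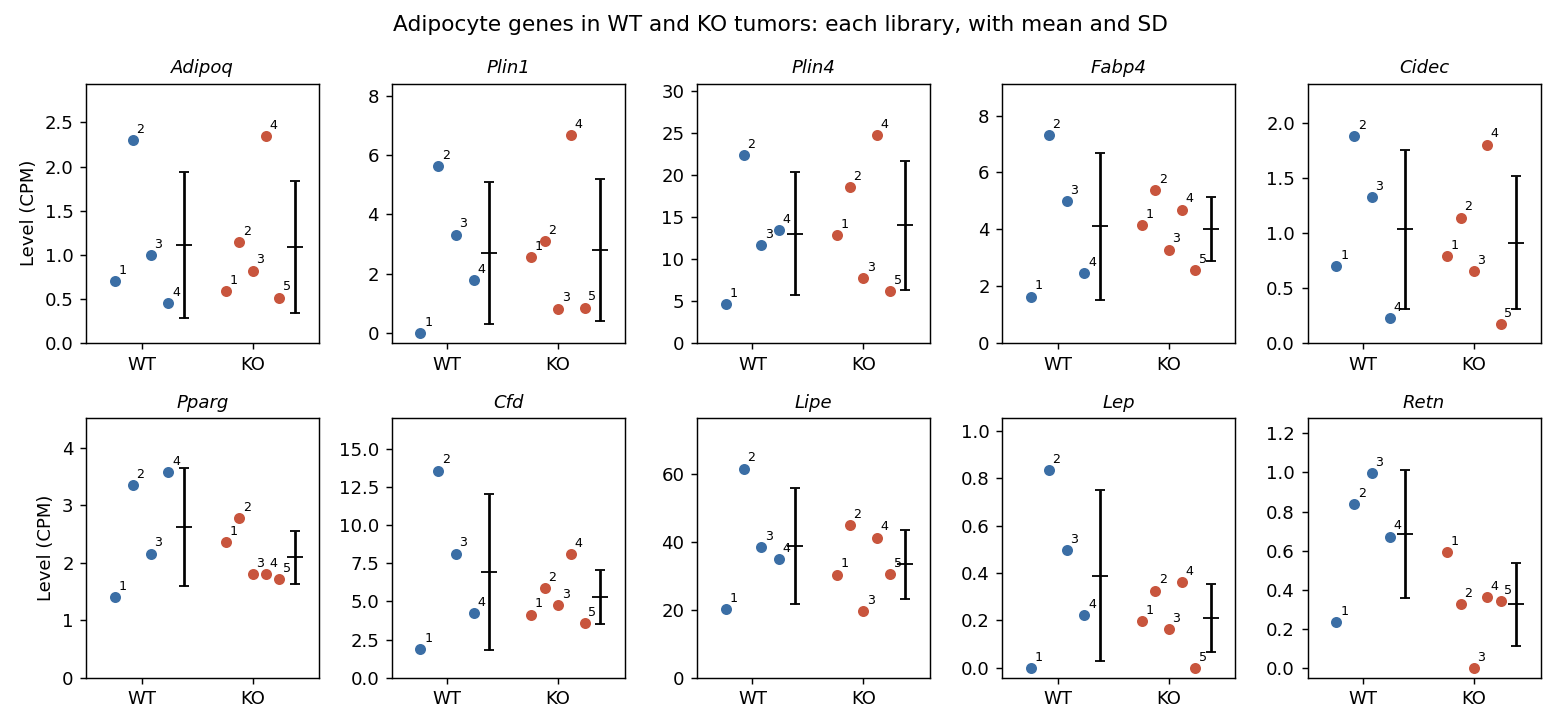
Levels of the 10 adipocyte genes in CPM on linear axes, 1 panel per gene, with each library as a numbered point (blue WT, red KO) and the mean with its SD as a bar. WT 2 and KO 4 lie high in most panels and WT 1 and KO 5 low, and the groups overlap in all 10.

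**Figure D3:**
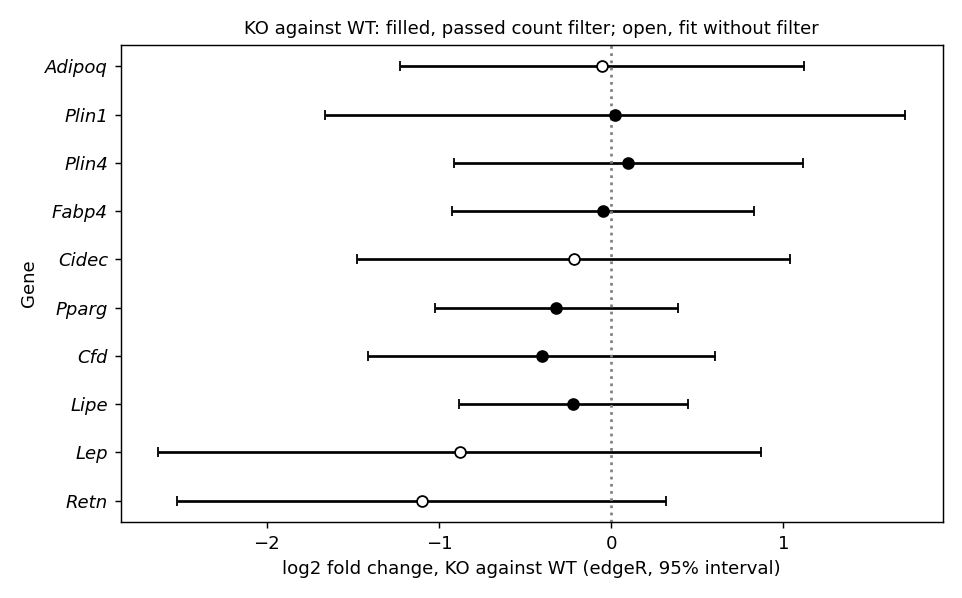
The log2 fold change of each adipocyte gene, KO against WT, with its 95% interval from edgeR. Filled points passed the count filter and open points come from the fit without it, and all 10 intervals include 0, the widest being those of Plin1 (-1.66 to 1.71) and Lep (-2.63 to 0.87).

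What the members shared was a ranking of the libraries that cut across genotype. In WT 2 all 10 members lay above their own median over the libraries, in KO 2 9 of 10, and in WT 3 and KO 4 8 of 10. In WT 1 and KO 5 all 10 lay below their median, and in KO 3 8 of 10 with none above. The summed level of the 10 genes ran from 31.4 CPM in WT 1 to 120 CPM in WT 2, with 72.5 and 62.0 CPM in WT 3 and WT 4. In KO it was 58.5, 83.6, 39.6, 92.1 and 46.3 CPM in KO 1 to KO 5. Each group thus held libraries from both ends of the range.

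Pairs of members followed each other to different degrees. The Pearson r of log2 CPM over the 9 libraries was above 0 for all 45 pairs of members and above 0.5 for 38, with a median of 0.71. These values describe 9 libraries that share their depth and composition between all genes. Plin1 had a median r of 0.85 with the other members and Plin4 and Cfd of 0.82. The loosest were Pparg and Retn, with medians of 0.57 and 0.49. Pparg was below its mean in KO 4, where Plin1, Plin4 and Adipoq were at their highest, and above it in WT 4, where Adipoq and Cidec were low.

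**Figure D4:**
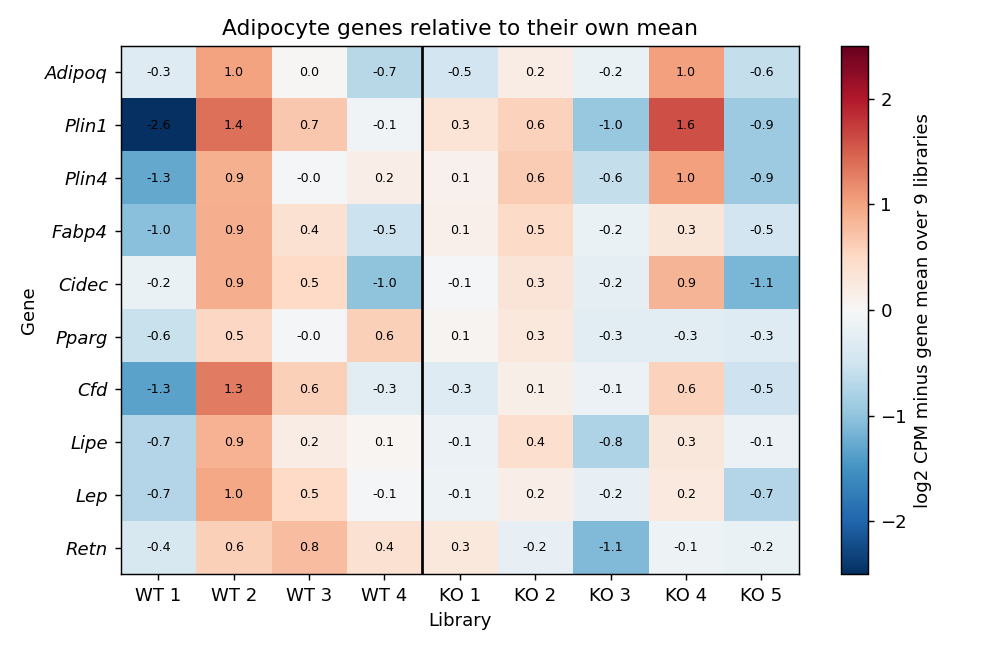
Deviation of each adipocyte gene (rows) from its own mean over the 9 libraries, in log2 CPM, for WT and KO libraries (columns, divided by a line). Columns WT 2 and KO 4 are mostly red (above the mean), and WT 1 and KO 5 are below the mean in all 10 genes.

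Several other measures varied with this ranking. A profile was formed for each library as the mean centred log2 CPM of Adipoq, Plin1, Cidec and Cfd, and it ran from -1.11 in WT 1 to 1.15 in WT 2. Adipoq (2 to 13 counts per library) and Cidec (1 to 10) fell under the count filter, and Plin1 had no read in WT 1. Low values of the profile therefore depend in part on the prior count of 2. Skeletal muscle genes, which mark tissue next to the fat pad, summed to 64.2 and 76.3 CPM in WT 1 and WT 4, where the profile was low, and to 162 and 183 CPM in WT 2 and KO 4, where it was high. KO 3 was an exception, with the highest muscle sum (192 CPM) at a profile of -0.37. Among the muscle genes the fast myosin Myh4, the largest part of the sum, ran from 21.9 CPM in WT 1 up to 114 CPM in KO 4. Mb, the next most abundant, ranked the libraries differently. It was highest in WT 3 (17.1 CPM) and KO 5 (15.6 CPM), against 9.4 CPM in WT 2 and 10.65 CPM in KO 4. Of the 10 muscle genes 9 were tested and none was called, 8 having positive fold changes. Milk protein genes ran the other way, highest in WT 1 and WT 4. Over the 9 libraries the Pearson r of the profile was 0.72 with the log2 muscle sum and -0.68 with the log2 milk protein sum. Without WT 2 and KO 4 these values were 0.68 and -0.65. The part of muscle and of milk protein genes in the pattern was not tested.

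Age moved with the ranking (Pearson r = 0.75 and Spearman rho = 0.76 with the profile over 9 libraries, and r = 0.49 without WT 2 and KO 4), and base composition did so less closely (r = 0.50, rho = 0.32, and r = 0.23 without those libraries). These are descriptions with no test. Per 10 percentage points of GC content, log2 levels of all genes shifted by -0.26 in WT 1 and -0.41 in KO 3, by 0.19, 0.20 and 0.17 in WT 2, WT 4 and KO 4, and by -0.05 to 0.07 in the other libraries. The members' transcripts had a median GC content of 52.9% against 49.5% over all genes tested, with Cfd highest at 58.4% and Fabp4 lowest at 40.3%. WT 4 and KO 5 had positive GC shifts of 0.20 and 0.07 and low profiles. With an offset for GC content and length in each library, chosen after seeing the data, the members' median log2 fold change was -0.14 and none was called. The oldest animal, at 132 days, gave WT 2, the library with the highest profile, and those of 120 days gave KO 3 and KO 5, with profiles of -0.37 and -0.79. WT 3 and WT 4 were both of 124 days and had profiles of 0.45 and -0.53.

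**Figure D5:**
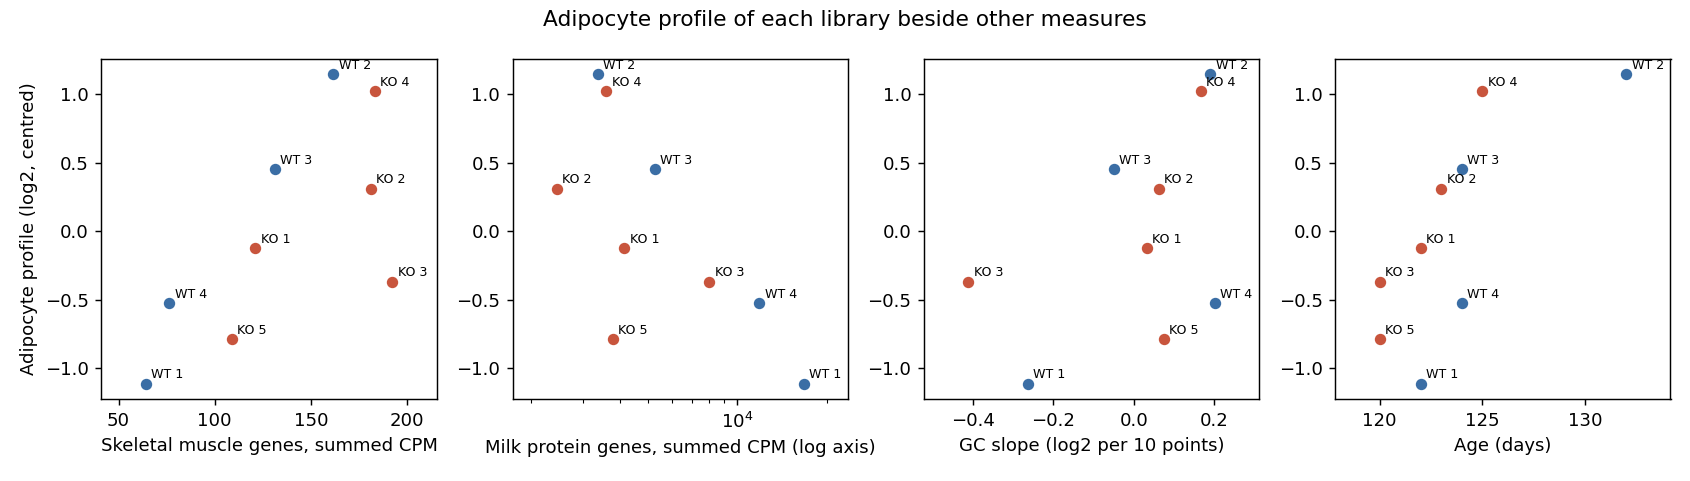
The adipocyte profile of each library (log2, centred, vertical axis) against the summed CPM of skeletal muscle genes, the summed CPM of milk protein genes (log axis), the GC shift of all genes per 10 percentage points, and age in days. WT 2 and KO 4 lie at the top in each panel, and KO 3 departs from the rest in the muscle and GC panels.

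The search for genes most like the profile left out the 10 members. Among 12492 other named genes tested, 12 had a Pearson r above 0.9 with it over the 9 libraries and 95 above 0.8, values that come from searching all genes and carry no test. The nearest was Dach2, a transcriptional cofactor (r = 0.97), followed by Nav2, a neuronal navigator protein (0.96), and Mylk, the myosin light chain kinase of smooth muscle (0.93). Khdrbs3, Nr6a1, Myzap, Myh11 and Ints9 followed at 0.92 to 0.93. Myh11, the smooth muscle myosin heavy chain also found in myoepithelium, ran from 15.8 CPM in WT 1 to 111 CPM in WT 2. None of these 8 genes was called between genotypes, with log2 fold changes of -0.17 to 0.10.

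Genes on a further list of fat cell genes ranged from a few reads to levels above those of the members, and none was called. Thrsp, a lipogenic protein gene named here after its values were seen, stood highest at 46.1 CPM per kb, followed by Gpd1 at 15.9 CPM per kb, both above Lipe. Of the 20 genes on this list 9 were tested, 6 with positive and 3 with negative fold changes and a median of 0.11. None was called or had an unadjusted p under 0.05. The list is not exclusive to fat cells, as Cidea also stands on the list of milk fat secretion by epithelium. Which cells made these transcripts was not tested. Gpd1, which makes the glycerol phosphate of triglyceride, averaged 51.1 ± 4.36 CPM over WT libraries and 41.2 ± 7.77 CPM over KO libraries (SD), with a log2 fold change of -0.31 ± 0.15 (SE), and the edgeR adjusted p was 0.639. The perilipin Plin5 had 0.44 ± 0.25 (0.679) and the carbonic anhydrase Car3 0.35 ± 0.41 (0.847). Pck1, the phosphoenolpyruvate carboxykinase that supplies glycerol in fat, was chosen after its values were seen. It stood at 0.465, 10.0, 4.15 and 1.57 CPM in WT 1 to WT 4 and at 4.93, 5.70, 0.821, 7.76 and 3.08 CPM in KO 1 to KO 5. Pck1 was thus high in WT 2 and KO 4 and low in WT 1 and KO 3, as Plin1 was. The list as a whole was mixed in this respect. Adig was also highest in WT 2 (9.61 CPM), while Thrsp was lowest there (41.2 CPM). Cidea, with 43 counts in all, was highest in WT 1 (1.63 CPM) and had no read in KO 4. Brown and beige markers were sparse, with Ucp1 at 17 counts over all libraries and Elovl3 at 1. Of these 8 genes 3 were tested and none called. The regulator Ppargc1a, at 5.17 ± 1.49 CPM (WT) and 9.42 ± 3.24 CPM (KO), had a log2 difference of 0.86 ± 0.31 (SE, edgeR adjusted p = 0.616). Prdm16 had 0.35 ± 0.40 (0.843).

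Pooled over 7 lists, adipocyte and lipid genes leaned lower in KO without any being called by edgeR. The lists hold the further fat cell genes, lipolysis and droplet coat, lipid synthesis, fatty acid uptake, transcription factors, adipokine receptors and other adipokines. The median was positive for the further fat cell genes (0.11) and negative for each of the other lists. Of the 97 genes 74 were tested, 25 with positive and 49 with negative fold changes, with a median of -0.15. None was called, and 3 were higher and 15 lower at an unadjusted p under 0.05, where 3.36% and 4.59% of all genes tested were. DESeq2 called 1 of them, lipoprotein lipase (Lpl).

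Lpl, which releases fatty acids from circulating lipoproteins, stood at 44.9, 18.6, 23.8 and 38.9 CPM in WT 1 to WT 4 and at 8.08, 11.9, 12.6, 13.7 and 21.5 CPM in KO 1 to KO 5. Only KO 5 reached into the WT range. Its log2 fold change was -1.21 ± 0.31 (SE), with an adjusted p of 0.415 in edgeR and 0.0483 in DESeq2. Lpl was highest in WT 1 and WT 4, the libraries with low adipocyte profiles and high milk protein genes. Of 11 genes of fatty acid uptake 9 were tested, 6 negative and 3 positive with a median of -0.29, among them the acyl-CoA synthetase Acsl1 (-0.43 ± 0.15) and the Lpl inhibitor Angptl4 (-0.52 ± 0.20).

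On the list of lipolysis and droplet coat genes, 9 of 12 genes tested were negative, with a median of -0.30. The unadjusted edgeR p was under 0.05 for 5, each of them lower, where 4.59% of all genes tested were lower at that limit. Plin2, the perilipin of milk fat globules and of small droplets in many cells, stood at 131, 108, 118 and 216 CPM in WT 1 to WT 4 and at 87.9, 90.1, 86.2, 96.9 and 97.0 CPM in KO 1 to KO 5. All KO libraries lay below all WT libraries. Plin2 was the only 1 of the 12 genes tested with ranges apart, where 2.70% of all genes tested had them. The log2 fold change was -0.64 ± 0.19 (SE), and the edgeR adjusted p was 0.538. Plin1 and Plin4, the perilipins among the 10 members, had values of 0.02 and 0.10. The hypoxia-induced droplet protein Hilpda had -0.66 ± 0.20 (0.596) and the lipase inhibitor G0s2 -0.78 ± 0.27 (0.616).

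Of 15 genes of triglyceride and fatty acid synthesis, all tested, 13 were negative and 2 positive, with a median of -0.21. The desaturase Scd1 had a log2 difference of -0.61 ± 0.23, the malic enzyme Me1 of -0.31 ± 0.12 and the carbohydrate-responsive factor Mlxipl of 0.69 ± 0.29 (SE), each with an edgeR adjusted p of 0.616. Adipogenic transcription factors and cofactors were divided, 8 positive and 9 negative of 17 tested with a median of -0.05. Among them the adipocyte commitment factor Zfp423 had 0.75 ± 0.33 and Klf5 -0.29 ± 0.12, both with edgeR adjusted p = 0.616. Cebpa, the C/EBP partner of Pparg, was chosen after its values were seen and averaged 33.8 ± 6.19 CPM over WT libraries and 29.7 ± 5.04 over KO libraries (SD).

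Receptors for the adipokines ranged widely in level. The adiponectin receptor Adipor1 averaged 141 ± 29.9 CPM over WT libraries and 112 ± 10.5 over KO libraries (SD), with a log2 fold change of -0.34 ± 0.15 (SE), and the edgeR adjusted p was 0.616. The resistin-binding protein Cap1 had -0.29 ± 0.14 (0.642) and the complement receptor C3ar1 -0.78 ± 0.42 (0.661). Of the 8 receptors 6 were negative, with a median of -0.31. Among 12 other adipokines 6 were tested, 4 negative and 2 positive, led by apelin (Apln, -1.48 ± 0.53, 0.616).

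Markers of the other cells in the pellets were tested in the same way, and none was called in any list. Of the adipose progenitor and fibroblast markers 9 of 10 tested were negative (median -0.76), led in level by Col1a1 at 319 ± 100 CPM (WT) and 153 ± 54.3 CPM (KO) and Col3a1 at 254 ± 42.0 and 151 ± 47.4 CPM (SD). The summed level of these 12 genes was 695 to 976 CPM in WT and 309 to 561 CPM in KO, with no overlap of the sums, and no gene of the list passed the test. Col1a1 and Col3a1 gave much of the sum, and in WT 2 Ly6a (329 CPM) exceeded both. Only Col1a1, 1 of the 10 tested, had ranges apart, where 2.70% of all genes tested did. Sums were also apart for the lists of lipolysis and droplet coat, milk fat secretion and neutrophils. The neutrophil sum was nearly all Ltf, with a mean of 1302 CPM over all libraries. The other genes tested on that list, S100a8 and Csf3r, had means of 3.45 and 4.49 CPM, overlapping ranges and log2 fold changes of 0.35 and 0.008. All 9 endothelial markers tested were negative (median -0.84, with Flt1 and Ptprb highest), with WT 1 standing apart. The endothelial sum was 185 CPM in WT 1. In WT 2, WT 3 and WT 4 it was 48.9, 65.5 and 72.1 CPM, within the KO range of 25.3 to 76.0 CPM. All 11 macrophage markers were negative too (-0.61, with Lyz2 and Cd14 highest). They summed to 515 to 820 CPM in WT and 270 to 678 CPM in KO. Genes of milk fat secretion, with Xdh and Mfge8 highest, summed to 1552 to 3372 CPM in WT and 1205 to 1510 CPM in KO, all 8 tested being negative, and the milk proteins led by Csn3 and Csn1s1 were all 7 negative. The 6 epithelial markers, with Epcam and Cdh1 highest, summed to 2832 to 6025 CPM in WT and 2726 to 3425 CPM in KO. On the neutrophil list Ly6g, Camp, Ngp, Mpo and Elane had no count in any library, and its most abundant genes were Ltf, which mammary epithelium also makes, and Csf3r. The part of these cells in the members' levels was not tested.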

How the data were processed

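The authors deposited 1 table of unnormalized fragment counts per gene for each library, whose leading lines match STAR gene counts per the file headers. Trimmomatic 0.36, FastQC 0.11.5, STAR 2.5.4a and the build GRCm38 are named in the submitters' processing notes, without order or settings, and no source used here gives the annotation release or strand setting. Rows that name no gene (unmapped, multimapped, without a feature or ambiguous) took 61.7% to 71.8% of a library and were left out. Symbols were matched by identifier without version for 55141 of 55401 mouse genes, and positions, lengths and GC content were taken from GENCODE M21 (GRCm38), using the longest coding transcript.

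KO was compared with WT in R 4.3.3 by edgeR 4.0.16 (glmQLFit and glmQLFTest, TMM factors, filterByExpr, genotype only, two-sided), with Benjamini-Hochberg adjustment over 14665 genes. SE is the size of the log2 fold change over the square root of F, and log2 CPM uses a prior count of 2. Genes under the filter were compared by exact permutation of CPM. DESeq2 1.42.0 and limma 3.58.1 (voom with sample weights) were alternatives. The fits were tested on simulated data.

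The members, gene lists and alternatives were chosen with earlier results of these data known, except the GC and length offset, which was chosen after seeing the data. Named genes are the 10 members, the 3 smallest p of each pathway list, the 2 most abundant of each marker list and the 8 genes most like the profile. One gene that this rule names is not reported here. No 2 libraries of a group were alike within counting noise.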

Additional observations from a re-analysis of the deposited data

How the results depend on the processing

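No member was called under any of the alternatives, with a lowest adjusted p of 0.320 (Plin4, with age as a covariate). Signs of most members are not stable. Pparg stayed negative in every fit that covered it, from -0.52 to -0.15 with 1 library left out. The CPM differences of Lep and Retn, both with few counts, also stayed negative in every setting in which they were computed. With age as a covariate, where WT 2 has the most extreme age, the log2 fold changes of Fabp4, Cfd and Lipe were 0.62, 0.43 and 0.31, those of Plin1 and Plin4 1.22 and 0.87, and the members' median 0.52 against -0.13. With the library number as a replicate block the change of Fabp4 was 0.18. The samples share only a number (correlation of deviations -0.02 to 0.38 for same-numbered pairs, with 3 of 4 WT libraries closest to their own number), and the block called 5 genes higher and 5 lower over all genes, against 8 and 5 without it. Without WT 1 and WT 4 Plin1 stood at -0.67, Plin4 at -0.28 and Cfd at -1.03, with a median of -0.60 over the 8 members then tested, and 2 of the 4 members under the count filter, Lep and Retn, reached 0.0476 in the exact permutation test, which can give no smaller p there. Over fits that left out 1 library, Plin1 ran from -0.59 to 0.62, Plin4 from -0.21 to 0.49, Fabp4 from -0.30 to 0.36, Cfd from -0.71 to 0.12 and Lipe from -0.43 to 0.088. The CPM difference, KO minus WT, ran from -0.344 to 0.368 for Adipoq and from -0.390 to 0.162 for Cidec, and 0 to 1 of the members under the filter had an exact permutation p under 0.05. The genes called over the whole table were 30 higher and 38 lower by DESeq2, 14 and 15 without a count filter, 4 and 2 when a mean count of 50 was required, and 2 lower with age as a covariate. With 1 library left out they were 5 to 9 higher and 1 to 4 lower. DESeq2 called 1 gene of the other lists (Lpl) where edgeR called 0. The cause of these shifts was not tested, beyond the smaller number of libraries or genes in some fits. Depth limits Lep, Retn, Cidec and Adipoq, at 14 to 53 counts in all.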
